A study of Mus musculus with 48 samples.

Results

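The saline-injected mice of an intrahippocampal kainate study were examined here on their own, by comparing the injected with the contralateral dentate gyrus of the same animal. The dentate gyrus is the granule cell layer of the hippocampus and its hilus, the region that the kainate model of temporal lobe epilepsy remodels. Members were chosen by treatment label alone: 12 mice injected with saline gave 24 libraries, 12 from the injected and 12 from the contralateral side, of 48 libraries from 24 mice in the whole series. The animals were adult wild-type C57BL/6J mice, 4 at each of day 3, day 7 and day 14 after the injection, and the other 12 mice received kainate by the same route. Under isoflurane, a needle was lowered through a burr hole into 1 hippocampus and sterile saline was delivered. All mice ate food with acetaminophen after surgery, and the saline mice showed no behavioural seizures. Only the dorsal part of each dentate gyrus was used, each side was dissected and sequenced separately, and no animals were pooled. The comparison therefore describes needle passage, saline and the time since surgery together, relative to tissue of the same operated animal. No unoperated mouse entered it. The methods give the same burr hole coordinate for all mice, so injected side and hemisphere cannot be told apart. Differences in dissection between the sides also enter the comparison. A response shared by both sides would not appear in it.

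A needle track in the brain is answered by glia. Microglia, the resident macrophages, sense damage through receptors coupled to the adaptor Tyrobp, take up debris with the help of complement proteins, and can pass into a disease-associated state marked by genes such as Cst7 and Clec7a. Astrocytes near a lesion enlarge their intermediate filament network of Gfap and Vim and secrete protease inhibitors and complement components. Progenitors of oligodendrocytes and microglia divide for some days after an injury. These roles are background and order the results below.

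To show where the genes that carry the results begin, 250 bases before the start of the canonical Gencode transcript are printed for Cst7, whose side difference was called at each day with all mice in the fit, and for C4b and Gfap, whose difference was larger at day 3 than at day 14. All are GRCm39, read 5′ to 3′ on the gene's own strand, with the letters of the ETS core GGAAGT in capitals, the short sequence shared by binding sites of the macrophage factor PU.1 and its relatives. The Cst7 window is chr2:150412034-150412283 on the plus strand, the C4b window chr17:34962913-34963162 on the minus strand and the Gfap window chr11:102788186-102788435 on the minus strand. The Cst7 and C4b windows end at the first base of the annotated gene, and the Gfap window lies in an intron of 1 longer noncoding Gfap transcript.
Cst7: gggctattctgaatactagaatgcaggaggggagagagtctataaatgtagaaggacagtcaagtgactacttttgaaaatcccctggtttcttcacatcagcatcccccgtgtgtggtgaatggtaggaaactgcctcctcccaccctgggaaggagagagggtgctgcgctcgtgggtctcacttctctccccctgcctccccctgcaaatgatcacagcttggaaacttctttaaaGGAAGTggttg
C4b: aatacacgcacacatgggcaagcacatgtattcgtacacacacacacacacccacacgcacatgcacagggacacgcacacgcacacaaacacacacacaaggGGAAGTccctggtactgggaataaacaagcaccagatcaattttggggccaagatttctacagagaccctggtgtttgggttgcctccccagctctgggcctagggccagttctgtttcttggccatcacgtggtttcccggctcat
Gfap: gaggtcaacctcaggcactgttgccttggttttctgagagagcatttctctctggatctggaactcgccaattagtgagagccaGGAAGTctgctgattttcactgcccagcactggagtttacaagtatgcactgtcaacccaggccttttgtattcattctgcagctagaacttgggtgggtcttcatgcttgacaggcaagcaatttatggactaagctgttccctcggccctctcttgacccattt
The match began 11 bases before the start of Cst7, 147 bases before that of C4b and 166 bases before that of Gfap. The letters were not in every such gene: the windows of Vim and Mpeg1, whose differences were also larger at day 3 than at day 14, held 0 matches, and that of Timp1 held 1. A match of these letters is a description of the window and not a binding site.

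In windows of this kind, GGAAGT or its reverse complement was found in 29.3% of 157 genes called higher on the injected side over all days and in 24.4% of 360 called higher at day 3, against 19.5% of all 14832 tested genes with a window. The longer PU.1 letters GAGGAAGT, which contain that core, were found in 4.46%, 3.61% and 1.98% of the same sets. The AP-1 letters TGANTCA were found in 8.28%, 7.5% and 4.48%. The STAT letters TTCNNNGAA were found in 11.5%, 8.61% and 6.43%, and the stricter TTCCNGGAA, a part of them, in 1.27%, 0.833% and 0.984%. The interferon-stimulated response element was found in 5.1%, 3.61% and 3.01%. Both strands were searched, no test was made of these shares, and the shorter ETS and STAT letters were added after the longer ones gave few matches.

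Poly-A RNA was sequenced to between 18557469 and 24661115 counts per library. The totals of both sides differed by 0.004 on the log2 scale on average (SD 0.14, n = 12 mice, exact sign-flip p = 0.930). The mitochondrially encoded share of counts was 7.17% on the injected and 7.47% on the contralateral side (exact sign-flip p = 0.0767, adjusted over 4 measures 0.153). The TMM scaling factor was 1.009 on the injected and 0.991 on the contralateral side, higher on the injected side in 10 of 12 mice (exact sign-flip p = 0.00342, adjusted p = 0.0137). With library size alone in place of TMM, 200 genes in place of 169 were called over all days. With Xist and Ddx3y, both libraries of each of the 12 mice agreed on the animal's sex, and each day held 2 males and 2 females. The Prox1 and Dcx levels used to check the tissue, markers of granule cells and of newborn neurons, did not pass the test between sides (log2 difference 0.10 ± 0.10 and 0.01 ± 0.05, SE). The tissue is bulk, so more cells of a type and more RNA per cell cannot be told apart in any result below.

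Over all days, 161 of 19810 genes tested were higher on the injected side (0.813% of those tested) and 8 were lower (0.0404%). The higher genes included 11 of 22 disease-associated microglia genes, 8 of 17 complement genes and 8 of 23 reactive astrocyte genes. A call needed a change of more than 1.5-fold with an adjusted p (Benjamini-Hochberg) below 0.01 in edgeR's quasi-likelihood test, with each mouse as a block and the side difference averaged over the 3 days. Differences are log2 of the injected over the contralateral level, with the standard error of the fit, and levels are CPM, counts scaled to a common library size. At an unadjusted p under 0.05, 2516 genes were higher (12.7%) and 2768 lower (14%). The median difference of all tested genes was -0.006. Of the 161 higher genes, 95 were higher in all 12 mice. The median difference of the 161 went from 1.32 at day 3 to 0.63 at day 7 and then 0.48 at day 14, where each value entered the average that chose the genes and 139 of them were also called at day 3. The count of 169 fell to 19 when a gene had to exceed a fold change of 1.5 beyond its error (glmTreat), and to 12 when the 24 kainate libraries shared the fit.

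C4b had the smallest p-value of all genes over all days. It encodes complement component C4, which is laid on debris and synapses before uptake. In the 4 mice of day 3 its contralateral level was 30.3, 23.05, 21.8 and 23.9 CPM, in those of day 7 it was 22.2, 25.3, 29.4 and 22.8 CPM, and in those of day 14 it was 30.3, 24.7, 28.4 and 21.8 CPM. On the injected side C4b was at 141, 94.9, 65.7 and 104 CPM at day 3, at 40.5, 47.1, 45.9 and 54.4 at day 7, and at 40.7, 38.8, 39.5 and 37.8 at day 14. The sides did not overlap at any day, and the contralateral levels stayed in the same range throughout. The difference was 1.16 ± 0.06 over all days (2.24-fold, edgeR adjusted p = 1.86e-07, higher in 12 of 12 mice). C4a, its near-identical neighbour on the same chromosome, differed by 0.93 ± 0.06 (adjusted p = 1.31e-06), and reads that fit both genes cannot be assigned between them. The 3 chains of C1q, which start the classical cascade and come from microglia in brain, were also higher, with C1qa at 0.71 ± 0.07, C1qb at 0.75 ± 0.06 and C1qc at 0.80 ± 0.07. C3, the central component, went from 0.0483 to 0.403 CPM contralaterally to 0.382 to 4 CPM on the injected side and differed by 2.74 ± 0.26 (6.69-fold, adjusted p = 2.59e-05, 12 of 12 mice). Of 17 complement genes tested, 8 were called higher over all days and 0 lower, with a median of 0.60, and 11 were called higher at day 3, with a median of 1.14. C4bp, an inhibitor that binds C4 and no member of the list, was lower (below).

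The largest differences in microglial genes were in the disease-associated set. Cst7 encodes cystatin F, an inhibitor of lysosomal proteases. At day 3 it was at 0.52, 0.17, 0.134 and 0.089 CPM contralaterally and at 4.35, 1.22, 1.29 and 1.95 CPM on the injected side. At day 7 the injected side was at 0.644, 1.01, 0.65 and 1.92 CPM, and at day 14 at 1.35, 1.55, 2.33 and 0.716 CPM, while the contralateral Cst7 level lay between 0.0442 and 0.204 CPM at these days. The sides did not overlap at any day. Cst7 differed by 3.5 ± 0.23 over all days (11.3-fold, adjusted p = 1.31e-06, 12 of 12 mice). These levels rest on few reads: at day 14, 128 counts in the 4 injected libraries stood against 9 in the 4 contralateral ones, a ratio of 14.4 with an exact 95% interval of 7.37 to 32.3 for counting error only. Clec7a encodes dectin-1, a phagocytic receptor, and differed by 2.82 ± 0.18 (7.07-fold, adjusted p = 1.31e-06). Its injected level was 3.09, 2.40, 1.51 and 2.38 CPM in the mice of day 3, then 2.02, 2.23, 2.55 and 3.73 CPM in those of day 7 and 1.59, 2.08, 1.76 and 1.05 CPM in those of day 14, against at most 0.572 CPM contralaterally.

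Other phagocyte genes differed by less and from a higher level. Mpeg1, which encodes the pore protein perforin-2 of macrophages, differed by 0.96 ± 0.05 (1.94-fold, adjusted p = 4.50e-07). Lyz2, lysozyme, differed by 1.20 ± 0.08, Tyrobp by 0.72 ± 0.05, Ctss, a lysosomal protease, by 0.70 ± 0.05, Cd68, a lysosomal membrane protein, by 0.75 ± 0.08 and Plek, an adaptor of haematopoietic cells, by 0.61 ± 0.04. The immune receptors Cd33, Cd300c2 and Lag3 differed by 0.64 ± 0.05, 0.89 ± 0.07 and 0.98 ± 0.08. All of these were called and were higher in 12 of 12 mice. Of 22 disease-associated microglia genes tested, 11 were called higher and 0 lower over all days (median 0.62), 15 at day 3 (median 1.09), 3 at day 7 and 1 at day 14. The abundant members Apoe, a lipid carrier, and Fth1, ferritin, were not called, at 0.20 ± 0.04 and 0.09 ± 0.05.

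Markers of the homeostatic microglial state did not fall on the injected side. All 14 tested were positive over all days with a median of 0.41, and 11 of 14 were called higher at day 3 with a median of 0.67. Over all days edgeR, DESeq2 and limma-voom each called 0 of the 14, since differences such as 0.52 ± 0.05 for the growth factor receptor Csf1r and 0.42 ± 0.04 for the chemokine receptor Cx3cr1 lay under the fold limit, although 13 had an unadjusted p under 0.05. The summed level of the list was 393 to 543 CPM contralaterally and 509 to 1061 CPM on the injected side. Aif1, the microglial marker Iba1, differed by 0.49 ± 0.08 over all days (not called) and by 0.96 ± 0.13 at day 3 (called).

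Of 10 genes of the infiltrating leukocyte list that could be tested, 2 were called higher over all days. They were the pan-leukocyte phosphatase Ptprc, at 0.87 ± 0.08, and the surface protein Cd52, at 1.3 ± 0.13, both of which microglia also express. Cd3e, Cd8a and Ms4a1, which define T and B cells, had 3 counts or fewer in each library. The list summed to 17.0 to 23.9 CPM contralaterally and to 18 to 43.6 CPM on the injected side. Ly6c2, a marker of inflammatory monocytes, differed by 0.06 ± 0.05. At day 3, 5 of the 10 genes were higher and 0 lower at an unadjusted p under 0.05 (50% higher, against 10.7% of all genes). The list median was 0.48 at day 3, with 8 of 10 positive, 0.002 at day 7 and 0.016 at day 14.

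**Figure D1:**
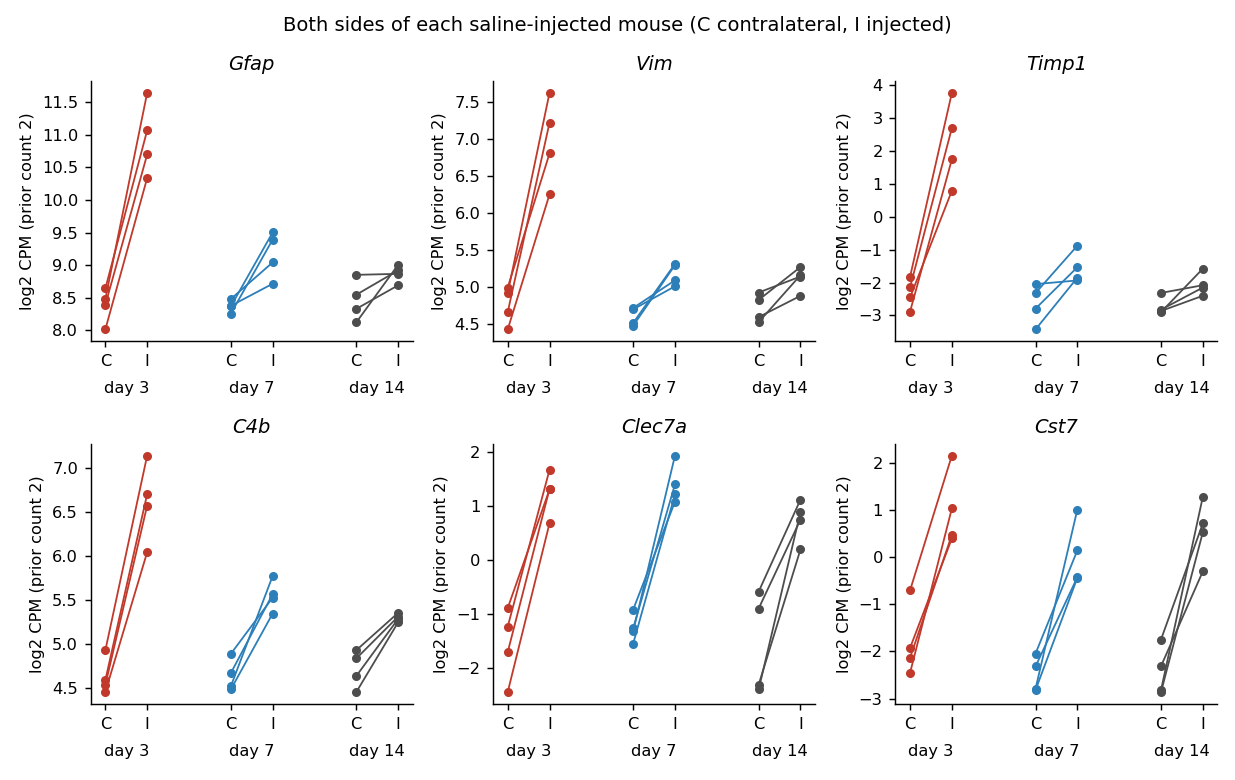
Levels in log2 CPM (vertical axis) of Gfap, Vim, Timp1, C4b, Clec7a and Cst7 on the contralateral and the injected side, with 1 line per saline mouse in red at day 3, blue at day 7 and grey at day 14. Every line rises to the injected side. For Gfap, Vim and Timp1 the red lines end apart from the others, whereas for Clec7a and Cst7 the 3 colours overlap.

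Reactive astrocyte genes were also called higher, and the differences of Gfap and Vim were larger at day 3 than at day 14. Gfap on the contralateral side was at 357, 336, 258 and 399 CPM at day 3, at 357, 306, 332 and 330 at day 7, and at 462, 374, 278 and 322 at day 14. On the injected side Gfap was at 3197, 1660, 1293 and 2146 CPM at day 3, at 527, 672, 420 and 725 at day 7, and at 467, 484, 514 and 413 at day 14. The sides were far apart at day 3, did not overlap at day 7 and overlapped at day 14. The Gfap difference was 1.25 ± 0.09 over all days (2.38-fold, adjusted p = 4.32e-06, 12 of 12 mice), and the call was lost in a fit with 1 side difference for all days (edgeR adjusted p = 0.0119). Vim was at 21.5 to 31.8 CPM contralaterally over the 12 mice, and on the injected side at 76.2 to 197 at day 3, 32.2 to 39.7 at day 7 and 29.5 to 38.6 at day 14. Its difference was 1.07 ± 0.08 (adjusted p = 4.32e-06, 12 of 12 mice), likewise lost with 1 side difference for all days (edgeR adjusted p = 0.0113).

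Timp1 and Tgm1 of the reactive astrocyte list were rare transcripts on the contralateral side. Timp1, a secreted inhibitor of matrix metalloproteinases, was at 0.189, 0.0424, 0.0896 and 0.133 CPM contralaterally and at 13.5, 3.26, 1.64 and 6.38 CPM on the injected side at day 3. That is 554 counts against 10, a ratio of 55.5 (exact 95% interval 29.97 to 116.5, counting error only). Tgm1, a transglutaminase that cross-links proteins, had 670 counts against 6 at day 3, a ratio of 112 (51.2 to 306). Over all days Timp1 differed by 2.89 ± 0.30 and Tgm1 by 3.80 ± 0.39, both in 12 of 12 mice. The later days rest on few reads. Timp1 had 22 counts against 6 at day 7 (ratio 3.40, 1.34 to 10.2) and 13 against 5 at day 14 (2.64, 0.88 to 9.46). Tgm1 had 15 against 4 at day 7 (3.48, 1.11 to 14.4) and 21 against 2 at day 14 (10.7, 2.61 to 93.8). Aspg, an asparaginase, differed by 1.3 ± 0.11, and the protease inhibitor Serpina3n by 0.64 ± 0.09. Without mouse 29 Serpina3n was at 0.55 and no longer called, nor was it called with 1 side difference for all days (edgeR adjusted p = 0.0434). Of 23 reactive astrocyte genes tested, 8 were called higher over all days (median 0.64) and 11 at day 3 (median 1.09), and 0 lower. Among 15 homeostatic astrocyte genes, edgeR called 0 over all days (7 higher at an unadjusted p under 0.05, 0 by DESeq2 and by limma-voom) and at day 3 called Aqp4, the water channel of astrocyte endfeet, at 0.92 ± 0.09. The glutamate transporter Slc1a2 and glutamine synthetase Glul were at 0.03 ± 0.03 and 0.02 ± 0.04.

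**Figure D2:**
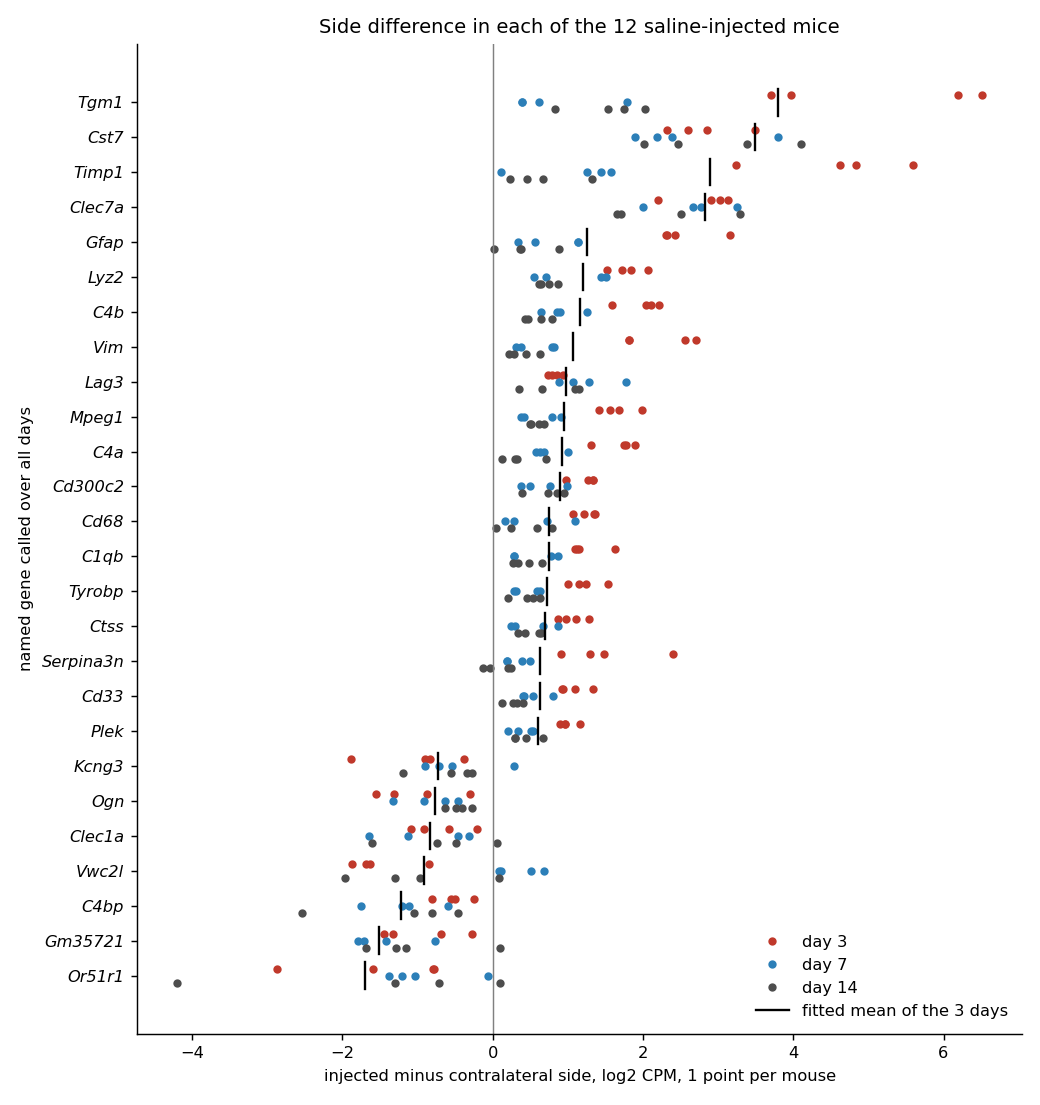
Difference of log2 CPM between the injected and the contralateral side (horizontal axis) for the genes called over all days and named here, with 1 point per saline mouse coloured by day and a bar at the fitted mean. Gfap spans from under 0.1 at day 14 to 3.16 in mouse 29 at day 3, while the points of Lag3 mix the 3 days. The prior count of 2 draws the single-mouse points of rare genes such as Tgm1 toward 0 relative to the fitted mean.

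Over all days, 4 of 15 antigen presentation genes and 3 of 23 interferon response genes were called higher. H2-Aa and Cd74, a chain of MHC class II and its chaperone, differed by 1.63 ± 0.17 and 1.34 ± 0.16 and were called. The class I heavy chains H2-K1 and H2-D1 and their partner B2m differed by 0.55 ± 0.05, 0.53 ± 0.06 and 0.47 ± 0.04 in 12 of 12 mice, which is under the fold limit over all days. At day 3 these 3 were called, at 0.64 ± 0.08, 0.64 ± 0.11 and 0.60 ± 0.07. H2-K1 and H2-D1 belong to a family of similar genes, so that their split is uncertain. All 15 antigen presentation genes were positive over all days (median 0.53), and 6 were called at day 3 (median 0.60). The called interferon response genes (list median 0.35) were Ifi27l2a at 1.76 ± 0.24, the guanylate-binding protein Gbp3 at 0.59 ± 0.08 and the antiviral tether Bst2 at 0.61 ± 0.11. The median of the interferon list went from 0.34 at day 3 to 0.59 at day 7 and then 0.09 at day 14. At these days 11, 16 and 3 of the 23 genes were higher at an unadjusted p under 0.05. These are 47.8%, 69.6% and 13%, against 10.7%, 4.35% and 5.38% of all genes. The list mean at day 7 was 1.02 in mouse 20, 0.58 in mouse 33, 0.33 in mouse 34 and 0.25 in mouse 89. In the mice of day 3 it was 0.31 to 0.50. All 23 were positive at day 7, where edgeR, DESeq2 and limma-voom called 0. The transducer Stat2 was at 0.08 ± 0.04 and was not called.

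Of 12 chemokine and cytokine genes, 4 were called higher over all days and 0 lower, with a median of 0.61. Cxcl5, which attracts neutrophils, was at 0.0959 to 0.593 CPM contralaterally and at 0.621 to 4.18 CPM on the injected side and differed by 2.47 ± 0.23 (adjusted p = 1.97e-05, 12 of 12 mice). Cxcl16 differed by 0.89 ± 0.15, whereas Cxcl12 and the microglial growth factor Csf1 were at 0.06 ± 0.06 and 0.12 ± 0.08. Of 19 genes of the TGF-beta pathway, Tgfb1, the ligand itself, was the only one called over all days, at 0.60 ± 0.09. Of 26 matrix and scar genes only Timp1 was called. At an unadjusted p under 0.05, 10 were higher and 2 lower over all days (38.5% higher, against 12.7% of all genes), and 12 were higher and 0 lower at day 3 (46.2%, against 10.7%). The most abundant of them, Sparc, was at 0.13 (adjusted p = 0.340).

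The 8 genes lower on the injected side were of other kinds and mostly rare. Ogn encodes osteoglycin, a small proteoglycan of meninges and fibroblasts. Its contralateral level was 5.95, 7.60, 4.66 and 4.71 CPM at day 3 against 2.35, 2.53, 2.50 and 3.81 CPM on the injected side, and it was lower in 12 of 12 mice (-0.77 ± 0.10, adjusted p = 0.000354). No other of 16 meninges and fibroblast genes was called in either direction. C4bp was also lower in 12 of 12 mice (-1.22 ± 0.21) but had 47 to 54 counts in the 4 contralateral and 15 to 33 in the 4 injected libraries of a day. The potassium channel subunit Kcng3 differed by -0.72 ± 0.14, the lectin receptor Clec1a by -0.83 ± 0.15, Vwc2l by -0.92 ± 0.18 and the transcript Gm35721 by -1.51 ± 0.27. These calls were often lost in the alternative fits, which was so for Vwc2l in 16 of 25, for Clec1a in 10 of 26, for Kcng3 in 9 of 26, and for C4bp and Gm35721 in 8 of 25 each. Vwc2l was lower in 4 of 4 mice at day 3 but higher in 4 of 4 at day 7 (0.42 ± 0.31, not called). For Or51r1, an odorant receptor gene at -1.70 ± 0.34 whose call was lost in 14 of 25 alternative fits, 1 contralateral library held 97 of 156 counts at day 3 and 1 held 101 of 137 at day 14. Without mice 18 and 39, whose sides differed most in ventral hippocampus genes, Ogn alone of the 8 remained called.

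At day 3, 367 genes were called higher (1.85%) and 6 lower (0.0303%). Without mouse 39 the day 3 counts were 449 higher and 52 lower. Of the 367, 139 were also called over all days, and 228 only at day 3. Without mouse 29 the day 3 count of 373 became 196, and with the 24 kainate libraries in the fit it became 13. The median difference of the 367 went from 1.08 at day 3 to 0.36 at day 7 and then 0.25 at day 14, where the first value is fixed by the choice and 327 were still positive at day 14. Among the lower genes were Vwc2l at -1.73 ± 0.26, Ogn at -1.03 ± 0.18, the sulfotransferase Chst9 at -0.65 ± 0.11 and Gramd2a at -0.59 ± 0.12.

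Cell division genes were called at day 3. Mki67, the proliferation antigen, was at 1.84, 2.93, 1.34 and 2.85 CPM contralaterally and at 17.4, 7.24, 5.64 and 8.43 CPM on the injected side, and it differed by 2.02 ± 0.27 (adjusted p = 0.000277). At day 7 and day 14 its sides overlapped, with differences of 0.04 ± 0.30 and 0.28 ± 0.31. Cdk1, the mitotic kinase, differed at day 3 by 2.62 ± 0.31, cyclin B1, Ccnb1, by 2.11 ± 0.24 and the topoisomerase Top2a by 1.86 ± 0.25. Of 25 proliferation genes, 10 were called higher at day 3 (median 1.09) and 24 were positive. The median was 0.08 at day 7 and 0.03 at day 14. The replication genes Mcm6 and Pcna, the most abundant of the list, were not called (0.15 and 0.08 at day 3). Mouse 29 had the largest mean over the list, 1.74, against 0.70 to 0.86 in the other 3 mice of day 3.

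In the oligodendrocyte lineage, Gpr17, Klk6 and transferrin were called at day 3. Gpr17 marks progenitors that are about to differentiate, and at day 3 it was at 45.7, 53.4, 38.2 and 43.4 CPM contralaterally and at 79.0, 88.2, 58.4 and 78.6 CPM on the injected side (0.75 ± 0.05, adjusted p = 1.14e-06). At day 14 the Gpr17 difference was -0.25 ± 0.05 (adjusted p = 0.203, not called). Of 10 oligodendrocyte progenitor genes, 6 were higher and 1 lower at day 3 at an unadjusted p under 0.05 (list median 0.29), and 5 were higher and 1 lower over all days (median 0.08). Of all genes tested, 10.7% were higher and 9.22% lower by this measure at day 3. At day 14, 0 of the 10 progenitor genes were higher and 3 lower (30% lower, against 6.16% of all genes). The list median was then -0.07, with 1 of 10 positive. The progenitor marker Pdgfra was at -0.15 over all days (adjusted p = 0.0599). Klk6, a protease of oligodendrocytes, differed by 3.34 ± 0.41 at day 3 and by 2.07 ± 0.30 over all days, and transferrin, Trf, by 0.69 ± 0.11 at day 3. Of 19 oligodendrocyte genes, all were positive over all days with a median of 0.25. At an unadjusted p under 0.05, 18 were higher (94.7%, against 12.7% of all genes), but only Klk6 was called. At day 7, all 19 had an unadjusted p under 0.05 and were higher, against 4.35% of all genes. The list median was 0.44 then, against 0.06 at day 3 and 0.24 at day 14, with 0 called at day 7 by edgeR or limma-voom and 1 by DESeq2. The myelin gene Mbp was at 0.29 (edgeR adjusted p = 0.0366).

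At day 7, 5 genes were called higher (0.0252%) and 0 lower by edgeR. They were C4b (0.91 ± 0.10), Clec7a (2.96 ± 0.31), Cst7 (3.46 ± 0.45), Lag3 (1.27 ± 0.14) and Lyz2 (1.06 ± 0.14), all of them called at day 3 as well. At an unadjusted p under 0.05, 861 were higher (4.35%) and 495 lower (2.5%), and DESeq2 called 13 higher and limma-voom 3. At day 14 only Cst7 was called (0.00505%), at 3.77 ± 0.40 (adjusted p = 0.00337), with 1066 genes higher (5.38%) and 1220 lower (6.16%) at an unadjusted p under 0.05. DESeq2 called 5 higher at day 14 and limma-voom 0. The other 4 genes called at day 7 did not pass at day 14, among them Clec7a at 2.39 ± 0.32 (adjusted p = 0.0311), Lag3 at 0.83 ± 0.14 (adjusted p = 0.131) and C4b at 0.58 ± 0.10 (adjusted p = 0.131). All 5 genes were higher in 4 of 4 mice at day 7 and at day 14, with no overlap of the sides. With all 48 libraries scaled together, the smallest differences in a saline mouse at these days were 1.91 for Cst7 and 0.55 for Lyz2, both at day 7. For Clec7a, C4b and Lag3 they were 1.66, 0.43 and 0.37, all at day 14. The counts of calls depended on the mice in the fit, those of other days included: day 7 gave 0 without mouse 33, 34 or 89, and day 14 gave 0 without mouse 24, 28, 39 or 89. In simulated counts of this design, 100 genes per fold size were changed at all 3 days. Of those changed 2-fold, 66, 72 and 69 were called at day 3, day 7 and day 14, and of those changed 4-fold 96 at each day. With that many changed genes the adjusted threshold is looser than where 5 or 1 are called. These shares therefore do not give the chance of a call in the real data of day 7 and day 14.

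**Figure D3:**
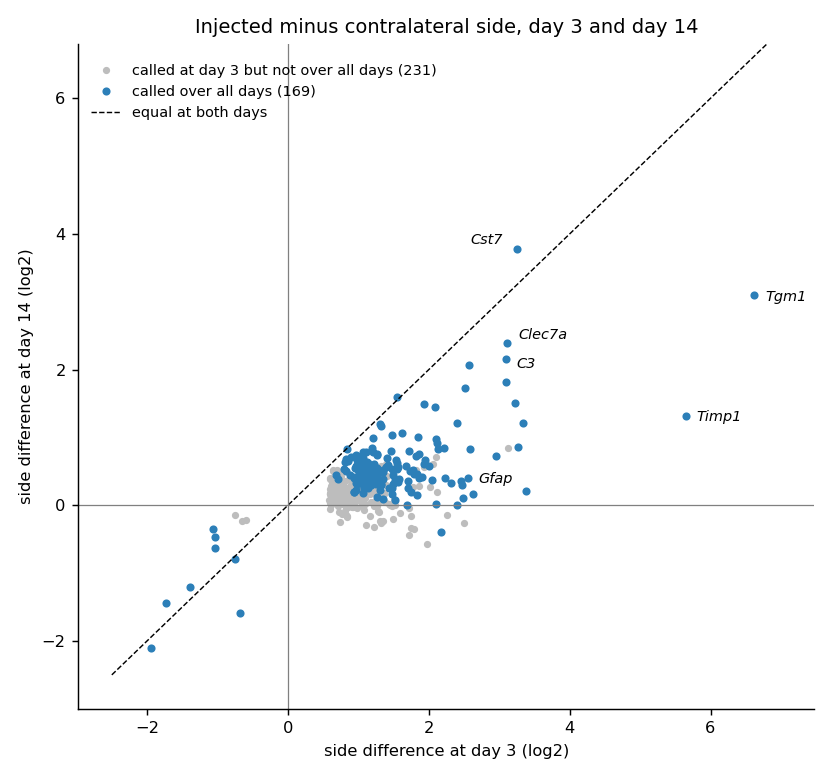
Side difference (log2, injected over contralateral) at day 14 (vertical axis) against day 3 (horizontal axis), with 1 point per gene: 169 genes called over all days in blue and 231 called at day 3 but not over all days in grey. The dashed line marks equal differences. Gfap (2.55 and 0.41) lies far below it, Clec7a (3.11 and 2.39) closer and Cst7 (3.26 and 3.77) slightly above.

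The change between days was tested directly. The 3 day-specific differences were unequal for 15 genes (0.0757%, adjusted p under 0.01). For 20 genes (0.101%) the difference was larger at day 3 than at day 14, and for 8 (0.0404%) larger at day 3 than at day 7, with 0 in the opposite direction. With a mouse left out, the 15 became 7 to 24 and the 20 became 8 (without mouse 24 or 31) to 32 (without mouse 18), and the 8 became 0 without mouse 20, 31, 33, 41 or 89 or with no replicate block. Gfap changed by 2.14 between day 3 and day 14 (95% interval 1.65 to 2.64), Vim by 1.83 (1.41 to 2.25), C4b by 1.41 (1.11 to 1.72), C4a by 1.34 (1.02 to 1.66), the complement receptor subunit Itgam by 1.19 (0.91 to 1.47), Mpeg1 by 1.10 (0.81 to 1.38) and Gpr17 by 1.0 (0.85 to 1.15). Itgam overlaps the gene model Gm49368, to which the same reads can be assigned. For Timp1 the change of 4.33 had an interval of 2.30 to 6.36 and was not called (adjusted p = 0.0704). No gene was called between day 7 and day 14 by edgeR, DESeq2 or limma-voom (302 higher and 314 lower at an unadjusted p under 0.05).

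A fall between day 3 and day 14 was not seen in some genes of the same groups, within wider or narrower limits. The change was -0.51 for Cst7 (95% interval -1.79 to 0.77) and 0.72 for Clec7a (-0.36 to 1.80), intervals that still admit a change of the size seen for Mpeg1 in Clec7a but not in Cst7. For Lag3 it was 0.01 (-0.42 to 0.43) and for H2-K1 0.13 (-0.11 to 0.37). The day 3 differences of both genes (0.82 for Lag3) were smaller than the fall of C4b, so that fall is no measure for them. A loss of the whole day 3 difference lies outside both intervals, and a small fall does not. Lag3 was at 9.75, 9.95, 7.62 and 9.24 CPM on the injected side at day 3, at 11.1, 12.6, 9.65 and 14.3 at day 7 and at 10.6, 9.37, 9.01 and 7.54 at day 14, with 4.14 to 5.88 CPM contralaterally. The sides of Lag3 did not overlap at any day.

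**Figure D4:**
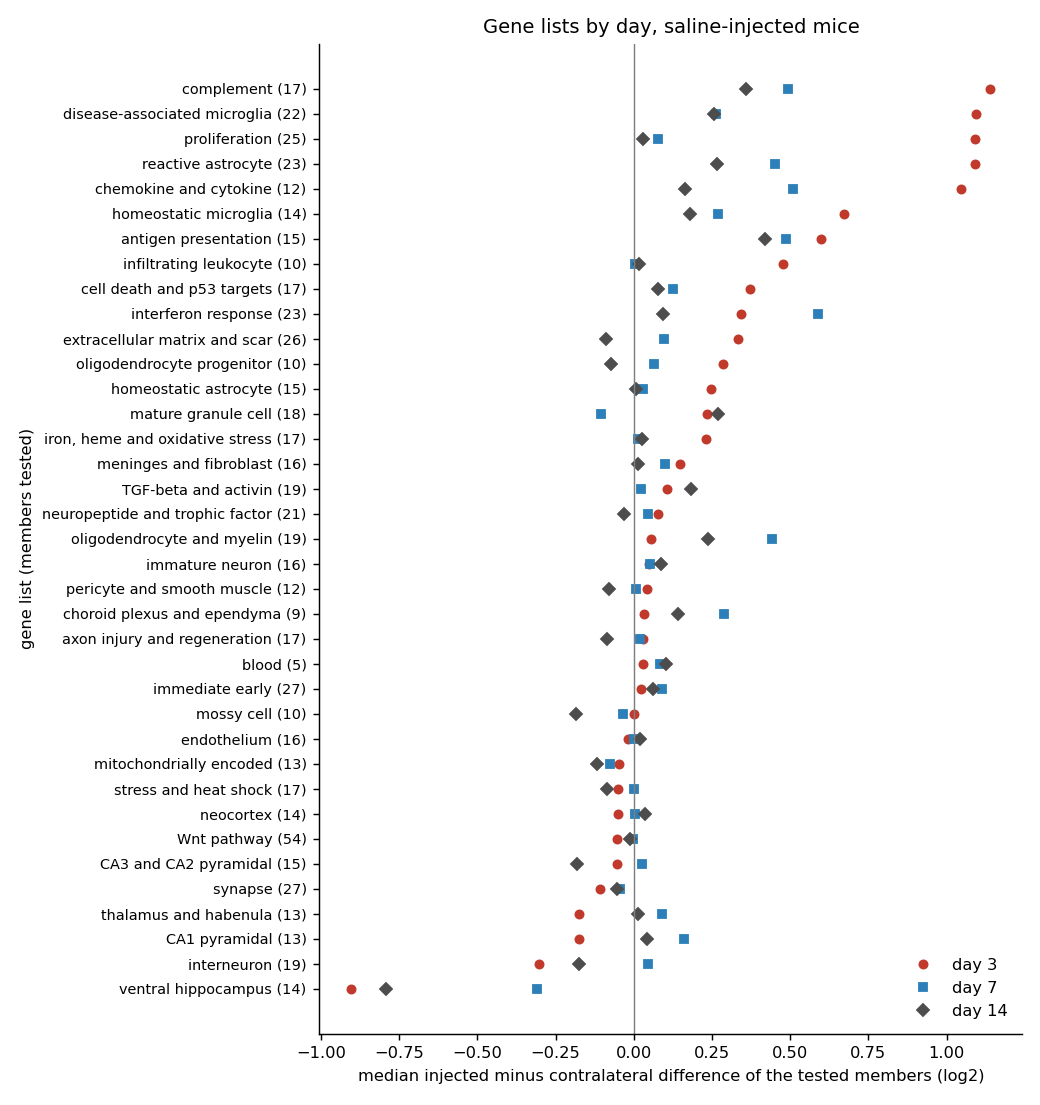
Median side difference (log2) of the tested members of 37 gene lists at day 3, day 7 and day 14. The lists of complement, disease-associated microglia, proliferation, reactive astrocyte and chemokine genes lie above 1 at day 3, and proliferation is near 0 at the later days, while antigen presentation stays between 0.42 and 0.60.

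Neuronal, vascular and blood lists had no called gene. Over all days and at day 3, edgeR called 0 genes in the lists of immature neuron (16 tested), mature granule cell (18), mossy cell (10), CA1 pyramidal (13), CA3 and CA2 pyramidal (15), interneuron (19), thalamus and habenula (13), neocortex (14), ventral hippocampus (14), choroid plexus and ependyma (9), endothelium (16), pericyte and smooth muscle (12), blood (5), immediate early (27), neuropeptide and trophic factor (21), axon injury (17), stress and heat shock (17), synapse (27), Wnt pathway (54) and mitochondrially encoded genes (13). DESeq2 called 1 each in the CA3 and CA2 and the thalamus lists over all days, and limma-voom 0 in all of them. At an unadjusted p under 0.05 over all days, 13 of 27 synapse genes were lower and 1 higher (list median -0.08), 8 of 19 interneuron genes lower and 0 higher (-0.15), 6 of 13 mitochondrially encoded genes lower and 0 higher (-0.09), and 8 of 54 Wnt genes lower and 6 higher (-0.03). The Wnt shares, 14.8% lower and 11.1% higher, were close to the 14% and 12.7% of all genes tested. The interneuron mean was -0.77 in mouse 18 and -0.69 in mouse 39, against -0.31 to 0.35 in the other 10 mice. The immediate early gene Fos, induced by neuronal firing, was at 0.18 ± 0.11 over all days (adjusted p = 0.318) and 0.46 ± 0.18 at day 3 (adjusted p = 0.172), and 4 genes of its list were higher and 3 lower at an unadjusted p under 0.05. The haemoglobin gene Hba-a1 was at 0.15 ± 0.06 (adjusted p = 0.129). Heme oxygenase Hmox1, which degrades heme from blood, was called at day 3 only (1.09 ± 0.22, adjusted p = 0.00859), as was the metallothionein Mt2 (0.60 ± 0.08) among 17 iron and heme genes. Of 17 cell death genes only Gsdmd, the pore-forming gasdermin, was called, at day 3 (0.81 ± 0.13). At day 3, 16 of the 17 were positive (median 0.37), 7 were higher and 0 lower at an unadjusted p under 0.05 (41.2%, against 10.7% of all genes), and limma-voom called 2 and DESeq2 0.

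Several tissue lists differed between the sides of single mice, and the ventral hippocampus list did so by the largest amounts among those given here. Of its 14 genes, 11 were lower at an unadjusted p under 0.05 over all days and 0 higher, with a median of -0.57. The mean over the list was -2.17 in mouse 18 of day 3 and -2.30 in mouse 39 of day 14, and -0.76 to 0.08 in the other 10 mice. Cpne7 and Nnat, its most abundant members, were at -0.89 (adjusted p = 0.0497) and -0.57 (adjusted p = 0.0961). The summed level was 246 to 1323 CPM contralaterally and 196 to 307 CPM on the injected side. The same 2 mice had the lowest interneuron means. Mouse 39 also had a mature granule cell mean of 1.16, against -0.37 to 0.47 in the others. The list means of CA1 pyramidal and of choroid plexus ran from -0.93 to 1.69 and from -1.23 to 1.52 over the 12 mice. Without mice 18 and 39, 202 genes were called over all days, 198 of them higher, and 465 at day 3.

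**Figure D5:**
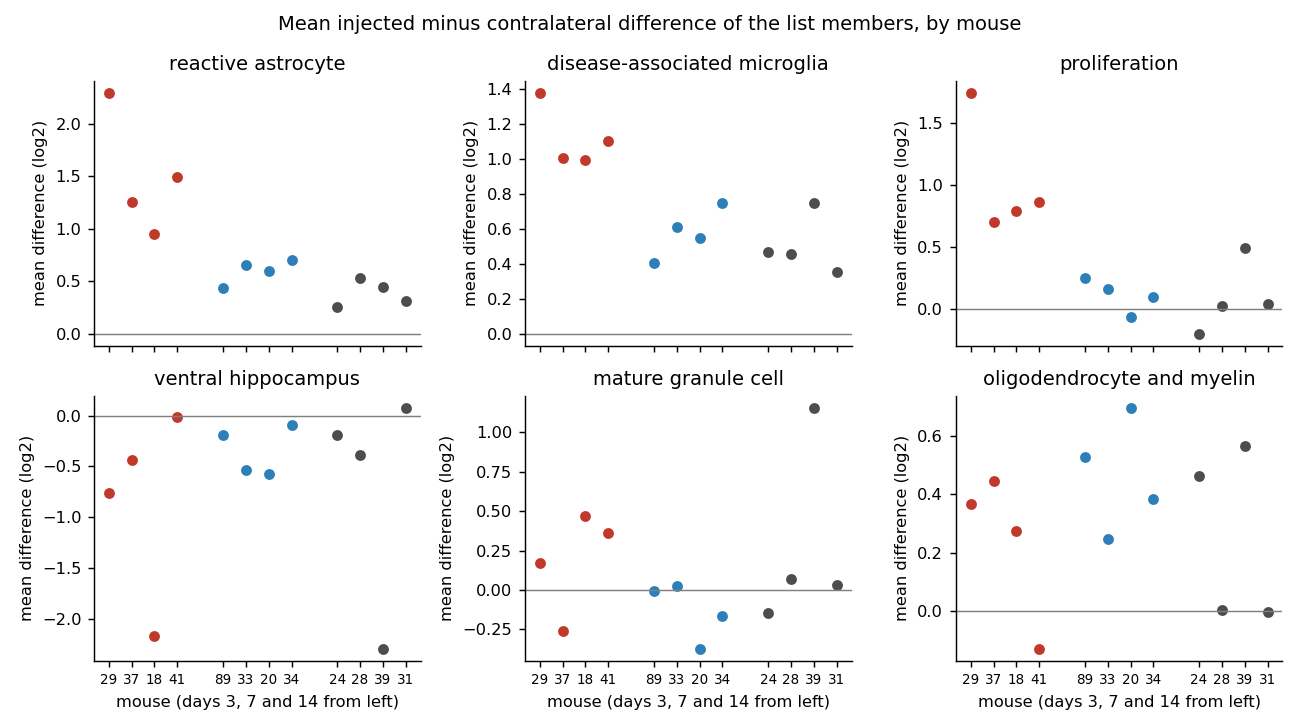
Mean side difference (log2) over the tested members of 6 lists, with 1 point per saline mouse at each day. Reactive astrocyte and disease-associated microglia means are above 0 in all 12 mice and highest at day 3, with mouse 29 at 2.29 for reactive astrocyte genes, and 2 mice stand at or below -2.17 in the ventral hippocampus list.

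The kainate mice give the same within-animal comparison after seizures. In a fit of all 48 libraries, 160 of the 161 genes called higher in saline mice were also higher on the injected side of kainate mice on average, with medians of 1.04 at day 3, 2.69 at day 7 and 1.65 at day 14. The side difference was larger in kainate than in saline mice for 1182 genes (5.53% of 21390 tested) and smaller for 904 (4.23%). Of the 161 genes, 45 were among the larger and 2 among the smaller. Fos, which was not called in saline mice, was among the 1182, with a difference of 2.39 between the treatments (edgeR adjusted p = 0.000609), and Dcx was among the 904, at -0.99 (adjusted p = 0.00249).

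At day 3, the contralateral side of the kainate mice was itself high, which bears on their side difference. Gfap was at 268 to 409 CPM on the contralateral and 1325 to 3307 CPM on the injected side of saline mice, and at 4107 to 4549 and 4710 to 5565 CPM on the corresponding sides of kainate mice, all on the scale of the 48 libraries. The side difference of Gfap at day 3 was 2.55 ± 0.42 in saline and 0.24 ± 0.10 in kainate mice (SD, n = 4 each), and the 2 treatments did not overlap. At day 7 it was 0.80 ± 0.42 and 2.42 ± 0.75, and at day 14 0.42 ± 0.36 and 1.45 ± 0.58. Lag3 was lower on the injected side in 4 of 4 kainate mice at day 3 (-0.71 ± 0.35, SD) and higher in 4 of 4 saline mice (0.82 ± 0.08). Cst7 reached 1.25 to 4.502 CPM on the injected side of saline mice at day 3 and 17.6 to 39.4 CPM in kainate mice. These single-day contrasts between treatments were not tested.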

How the data were processed

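Total RNA of dorsal dentate gyrus was sequenced as stranded poly-A libraries. Per the methods and the labels, the authors trimmed reads with fastp 0.20.1, aligned them with HISAT2 2.2.1 to GRCm39 and counted pairs on Gencode M28 genes with featureCounts of Subread 1.6.4, placing multi-mapping reads at their primary alignment. The values used are the raw integer counts per gene deposited by the authors, without normalization. The table held 55357 genes, and 98.90% of identifiers matched Gencode M39, used here for positions and promoters. The authors' own DESeq2 comparisons were not used. Libraries were grouped by the treatment, side and day labels, and the mouse number in the titles paired the sides of 1 animal.

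From the counts, genes were kept by filterByExpr over the 6 side-by-day groups (19810 genes, 99.89% of counts) and scaled by TMM. edgeR 4.0.16 (R 4.3.3) fitted a quasi-likelihood model to the 24 saline libraries with a mouse block and 1 side difference per day. Contrasts were the mean of the 3 differences, each day, and differences between days, and kainate against saline came from all 48 libraries (21390 genes). Calls needed a change of more than 1.5-fold and an adjusted p (Benjamini-Hochberg) below 0.01, the thresholds of the study. The standard error was the log2 fold change over the square root of F. Levels of single libraries are CPM, and log2 CPM used a prior count of 2. Single values were compared by 2-sided exact sign-flip tests, whose smallest p is 0.125 with 4 mice, so none was made within a day. The sides of a mouse correlated in their residuals at 0.047 to 0.435 (median 0.242), over 0.1 in 11 of 12 mice. Totals of 18557469 to 24661115 counts limit rare genes most, and counting intervals cover counting error only. In simulated counts of 19810 genes with 100 changed per fold size, 99 genes changed 4-fold and 90 changed 2-fold were called over all days, and 0 unchanged. Of the unchanged genes, 2 were called at day 3, 2 at day 7 and 1 at day 14.

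Named genes are the 15 called genes with the smallest p in each direction over all days, the 5 per day and direction, the 5 for day 3 minus day 14, and of each list the 2 most abundant and up to 3 further called members, plus Gfap, Vim, Serpina3n, Aif1, Cd68, Hmox1, Fos, Prox1, Dcx, Mki67 and Hba-a1. Members and lists were chosen with earlier results of these data known, so list counts are descriptive. Ahsp and Ddit3 were not analysed here. Some genes that the naming rule selects are not reported here. Alternatives were DESeq2 1.42.0, limma-voom (limma 3.58.1), other scalings, filters and thresholds, a GC and length correction, no mouse block, 1 side difference for all days, all 48 libraries, and each mouse left out. Fits without mice 18 and 39 and of single days were added after the data were seen.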

Additional observations from a re-analysis of the deposited data

Results flagged for a closer look

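Single mice stood apart from the other 3 of their day in 6 of 114 groups of 4 examined (38 genes at 3 days), where chance flags about 1 in 20. At day 3, mouse 29 had a Gfap difference of 3.16 against 2.30 to 2.43 in the others and a C1qb difference of 1.63 against 1.10 to 1.16. At day 7, mouse 34 had a Tgm1 difference of 1.78 against 0.39 to 0.62 and an Itgam difference of 0.45 against 0.07 to 0.13. At day 14, the Itgam difference was -0.10 in mouse 28 and 0.15 to 0.18 in the others. The Dcx difference at day 3 was 0.31 in mouse 41 and -0.09 to -0.07 in the others.

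For 7 named genes the side difference itself changed between days by edgeR's quasi-likelihood test of equal differences. It was larger at day 3 than at day 14 by 1.41 for C4b (adjusted p = 0.00128), 1.10 for Mpeg1 (adjusted p = 0.00192), 1.34 for C4a (adjusted p = 0.00194), 2.14 for Gfap (adjusted p = 0.00128), 1.83 for Vim (adjusted p = 0.00128), 1.0 for Gpr17 (adjusted p = 7.66e-05) and 1.19 for Itgam (adjusted p = 0.00128). Each day holds other mice, so that day and animals cannot be told apart beyond the spread within a day.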

How the results depend on the processing

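Counts are of genes called over all days, at day 3, at day 7, at day 14, with unequal differences, with a difference between day 3 and day 14, and between day 3 and day 7, in this order, from 169, 373, 5, 1, 15, 20 and 8. With all 48 libraries they were 12, 13, 0, 0, 0, 0 and 0. Without a filter on low counts they were 350 (260 higher, 90 lower), 658, 47, 34, 154, 131 and 78. At an adjusted p under 0.05 they were 319 over all days, then 11, 2, 72, 71 and 27 from day 7 on. With DESeq2, day 7 gave 13, day 14 gave 5, and the tests between days 79, 56 and 42. Against a fold change of 1.5 (glmTreat), all days gave 19, day 3 gave 90, day 7 gave 1, and the tests between days 0 and 0. Without the pairing (no replicate block), all days gave 160 and day 3 gave 342, while day 7 gave 2, day 14 gave 0, and the tests between days 3, 9 and 0. Only the libraries of a day gave 197, 15 and 0 at the 3 days. Without mice 18 and 39, day 14 gave 0, unequal differences 50 and day 3 minus day 14 56. Day 7 gave 2 and day 14 gave 0 with at least 10 counts in every library, 3 and 0 with limma-voom. The GC and length correction gave 3 at day 7 and 11 for day 3 minus day 14, which was 12 with library size only and 13 with RLE. Without a fold limit all days gave 465. For kainate minus saline, 2086 became 3881 without a fold limit, 3327 at an adjusted p under 0.05 and 15 with glmTreat, and with no replicate block its split moved from 1182 and 904 to 1376 higher and 540 lower. The causes were not tested.

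With each mouse left out, the counts ran from 129 (without mouse 33) to 182 over all days, 196 (without mouse 29) to 501 (without mouse 39, 449 higher and 52 lower) at day 3, 0 (without mouse 33) to 7 at day 7, 0 to 1 at day 14, 7 (without mouse 37) to 24 for unequal differences, 8 (without mouse 24) to 32 and 0 (without mouse 20) to 13 between days, and 1412 to 2838 for kainate minus saline.

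Of the 38 named genes followed, Prox1 reversed to -0.024 without mice 18 and 39, and with a mouse left out Dcx ran from -0.0202 to 0.0374. The log2 difference of library totals, 0.004, ran from -0.0135 to 0.0308. Among called genes, the call was lost in 16 of 25 alternatives for Vwc2l, 14 of 25 for Or51r1, 10 of 26 for Clec1a, 9 of 26 for Kcng3, 8 of 25 for C4bp and Gm35721 and 4 of 26 for Serpina3n. For Gfap it was lost with 1 side difference for all days, and for Vim also with all 48 libraries. C1qb, Cd33, Cd300c2, Cd68, Ctss, Lag3, Plek, Tyrobp and Ogn lost the call in 2 alternatives each, and Mpeg1 and Lyz2 in 1. Depth limits the rare genes: Timp1 and Tgm1 had at most 3 counts in contralateral libraries of day 7 and day 14.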
